A study of Mus musculus with 12 samples.

Results

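The genes of the constitutive 26S proteasome are taken here as those whose symbol starts with Psma, Psmb, Psmc, Psmd, Psmf or Psmg followed by a number, together with Psme3 and Psme4. The catalytic subunits Psmb5 to Psmb7 and the immunoproteasome subunits Psmb8 to Psmb10 were left out, as were pseudogenes. This gave 40 of the 32285 genes in the feature list, chosen by symbol, with earlier results of these data known. The cells came from small intestinal organoids, which are crypts of wild-type BALB/c mice grown in Matrigel, treated for 4 days in 6 groups. The control group (Ctrl) had neither T cells nor recombinant cytokines. The Treg group was cocultured with 100000 allogeneic CD25high FoxP3-GFP+ T cells (Treg) per well, kept apart from the organoid drop, with IL-2 (30 U/ml) and CD3/CD28 beads. Further Treg cocultures received anti-IFNγ, anti-IL-10R or both antibodies (10 µg/ml). The last group received recombinant IFNγ (rIFNγ, 0.25 ng/ml) and recombinant IL-10 (rIL-10, 10 ng/ml) without T cells. No group received rIFNγ or rIL-10 alone, so their parts cannot be told apart, and the sources used here do not say whether the groups without T cells received IL-2 or beads.

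Live EpCAM+ cells carried 1 hashtag antibody per group, were pooled and were sequenced from the 3′ end with unique molecular identifiers (UMIs), each standing for 1 captured RNA molecule. The 5 libraries came from 3 replicates, which the labels call biological, each library held all 6 groups, and each had 128917456 to 223155304 UMIs. After filtering, 11911 cells with 1 hashtag remained (1774 of them control), with group medians of 43651 to 44690 UMIs per cell. Libraries shared 9 to 24 cell barcodes with each other. Cells were assigned to classes built from control cells, of which 5 were tested: TA-like (transit-amplifying, 5381 cells), absorptive-like (2367), Dmbt1-high cycling (1282), ISC-like (intestinal stem cell, 1012) and goblet/Paneth-like (491). Levels are given as UMIs per 1000000 UMIs of the summed cells (CPM). Epcam, the gene of the protein used in the sort, was at 1616 to 1853 CPM in every group and replicate. Over all cells the 12 T cell markers summed to at most 1.21 CPM except in the Treg + anti-IL-10R group, with 6.03 in replicate 2 and 18.1 in replicate 3. The 6 fibroblast markers summed to at most 6.15 except in replicate 3 of that group, with 10.6.

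The 26S proteasome degrades proteins that carry ubiquitin. Its 20S core is a barrel with outer α rings, which form the gate, and inner β rings, some of whose subunits cut the substrate. A 19S cap sits on the core, with an ATPase ring in its base that unfolds substrates and a lid that removes ubiquitin. Dedicated chaperones assemble these parts, and other activators or inhibitors can bind the ends of the core. IFNγ is known to induce Psmb8, Psmb9 and Psmb10, which take the place of the catalytic subunits in newly made immunoproteasomes, and the activator genes Psme1 and Psme2. Immunoproteasomes supply peptides to MHC class I, also in epithelial cells.

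Psma4 (ENSMUSG00000032301), Psma5 (ENSMUSG00000068749) and Psmg4 (ENSMUSG00000071451) had the largest median changes with rIFNγ plus rIL-10 among the members called in at least 3 classes, and their start regions are therefore shown. The sequences are from RefSeq (GRCm38.p6), 5′ to 3′ on the plus strand on which all of these genes lie, from 250 bases before the annotated start to 30 bases after it. Psma4 is at chr9:54950609-54950888, Psma5 at chr3:108256676-108256955 and Psmg4 at chr13:34162714-34162993. Capitals mark a match to an interferon response element, searched as GAAA, any 2 bases and GAAA again, which was in Psmg4 alone among these windows.
Psma4: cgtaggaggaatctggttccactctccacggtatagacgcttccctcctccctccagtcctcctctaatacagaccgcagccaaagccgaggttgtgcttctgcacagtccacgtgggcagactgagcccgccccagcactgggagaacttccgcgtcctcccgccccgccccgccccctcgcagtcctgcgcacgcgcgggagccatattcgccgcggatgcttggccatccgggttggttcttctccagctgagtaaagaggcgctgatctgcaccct
Psma5: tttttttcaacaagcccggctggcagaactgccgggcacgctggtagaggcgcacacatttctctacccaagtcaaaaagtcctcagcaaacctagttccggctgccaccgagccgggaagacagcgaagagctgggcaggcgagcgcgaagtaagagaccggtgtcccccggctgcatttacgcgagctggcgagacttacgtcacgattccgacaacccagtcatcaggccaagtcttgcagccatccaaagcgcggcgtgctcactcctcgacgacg
Psmg4: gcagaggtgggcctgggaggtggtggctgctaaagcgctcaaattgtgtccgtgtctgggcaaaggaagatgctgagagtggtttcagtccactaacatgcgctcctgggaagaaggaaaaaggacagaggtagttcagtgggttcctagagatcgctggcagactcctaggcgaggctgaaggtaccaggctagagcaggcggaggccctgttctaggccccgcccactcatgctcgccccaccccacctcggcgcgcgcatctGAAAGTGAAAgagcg

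The match in Psmg4 began at base 16, counting the annotated start as base 1. RefSeq start regions, 250 bases before to 50 bases after the start, were matched for 33 of the 40 members as 35 windows, some of which belong to 1 gene. The interferon response element, read on both strands, was in 4 member windows (Psmb3, Psmd4, Psmd9 and Psmg4), or 11.4% against 3.44% of all 32851 windows. The gamma-activated site TTCNNNGAA was in 2 (5.71% against 8.3%), the antioxidant response core TGACNNNGC in 4 (11.4% against 12.4%) and CCAAT in 13 (37.1% against 37.4%). Psma4 and Psma5 held none of these 4 motifs in this window. A match describes letters and not a bound site.

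In control organoids the members gave 0.562 ± 0.044% of all UMIs (mean ± SD, n = 3 replicates). Of the 40 members, 38 passed the filter on low counts in every class. Psma8, an α subunit known from testis, had 8 UMIs in the 11911 cells and Psmb11, the catalytic subunit of the thymus, had 3, and neither was tested. In TA-like cells the median member was at 135.9 CPM and the median gene at 14.79, and 38 of 38 members were above that gene median, as were 35 to 37 of 38 in the other classes.

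The tested members with the most and the fewest UMIs in each role show the range of levels over all control cells, in CPM (mean ± SD, n = 3). Capture can differ between genes, so these are levels side by side and no order between genes is drawn from them. In the α ring Psma7 was at 553 ± 5.58 and Psma1 at 135 ± 23.8. Among the structural β subunits, which build the inner ring, Psmb1 was at 307 ± 30.0 and Psmb4 at 247 ± 29.6. In the ATPase ring Psmc3 was at 162 ± 4.42 and Psmc1 at 81.8 ± 13.7. The SD over replicates was small for Psma7 and Psmc3 and larger, relative to the mean, for Psma1 and Psmc1. Of the other base subunits Psmd4, a ubiquitin receptor, was at 180.2 ± 9.04 and Psmd2, a large scaffold subunit, at 97.8 ± 6.54. In the lid Psmd7, the partner of the deubiquitinase Psmd14, was at 169 ± 11.8 and Psmd3, a structural subunit, at 66.8 ± 8.99. The activator Psme4 (PA200) was at 66.6 ± 14.7 and the inhibitor Psmf1 (PI31) at 19.7 ± 1.07. Of the assembly chaperones Psmg4 was at 84.3 ± 5.54 and Psmd5 at 32.6 ± 0.954.

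Among the 5 tested classes of the control organoids, most members were highest in TA-like or Dmbt1-high cycling cells. This is a description without a test because the classes were built from control cells. By cluster this did not hold throughout. Control clusters without a class name had member shares of 0.719 ± 0.0264% and 0.615 ± 0.0407% of UMIs, against 0.582 ± 0.0453% in TA-like cells. A TA-like cluster led by Cenpf and Mki67 was at 0.527 ± 0.0213%, the other TA-like clusters at 0.569 to 0.621%. The absorptive-like clusters were at 0.542 ± 0.0320% and 0.415 ± 0.0417%. The highest class mean was in Dmbt1-high cycling cells for 19 members, in TA-like cells for 16 and in goblet/Paneth-like cells for 3 (Psmb1, Psme4 and Psmf1). The lowest was in goblet/Paneth-like cells for 23 and in absorptive-like cells for 13. The α ring genes summed to 1961 ± 156 CPM in TA-like, 1945 ± 173 in Dmbt1-high cycling, 1783 ± 116 in ISC-like, 1601 ± 173 in absorptive-like and 1439.7 ± 41.5 in goblet/Paneth-like cells, so that the SD intervals of neighbours in this order met. The α ring replicates of TA-like cells (1789.7, 1998 and 2095) did not overlap with those of absorptive-like cells (1402, 1711 and 1690.1). The same held for the assembly chaperones, which summed to 369, 413 and 439 in TA-like and to 233, 278 and 266 in absorptive-like cells. Psmg2, which pairs with Psmg1 to help build the α ring, was 2.30 times higher in TA-like than in absorptive-like cells, whereas Psmb1 was 1.04 times higher and Psmd8, a lid subunit, was at 0.976 of the absorptive-like level.

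**Figure D1:**
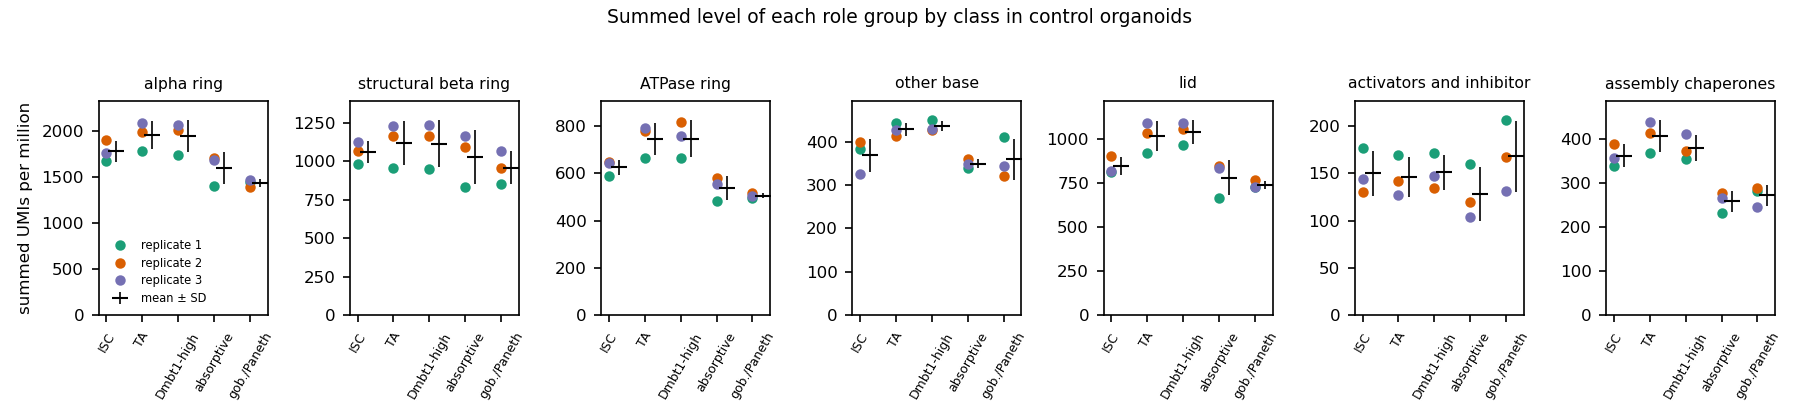
Summed level of each role in control organoids (y axis, CPM) in the 5 classes; points are the 3 replicates, crosses with bars the mean ± SD. Among these 5 classes the α ring is highest in TA-like and Dmbt1-high cycling cells (1961 and 1945 CPM). The chaperones are lower in absorptive-like (259) than in TA-like cells (407).

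The comparison of rIFNγ plus rIL-10 with control asked what these cytokines do to the epithelium in the absence of T cells. Of the 38 tested members, 27 rose in at least 1 class, 12 of them in 3 or more, and 3 fell in 1 class, with the most calls in the α ring and the structural β subunits by share of their tests. Of 190 tests (38 members in 5 classes), 61 were higher and 3 lower, or 32.1% against 9.28% of all genes higher and 1.58% against 8.34% lower. These shares are not matched for level, and in control TA-like cells the median member was at 135.9 CPM and the median gene at 14.79. Here and below, a gene was called at an adjusted p under 0.05 in edgeR's quasi-likelihood test on UMIs summed per class, group and replicate, with Benjamini-Hochberg adjustment over all genes of the class. The median log2 fold change of the members was 0.18, while that of all genes was -0.01 to 0.01 in each class. The 8 members called in no class were Psma6, Psmc4, Psmc5, Psmd5, Psmd6, Psmd8, Psmd10 and Psmf1.

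By class, 22 of 38 members rose in TA-like cells (15.2% of all genes did), 21 in absorptive-like cells (14.6%), 11 in Dmbt1-high cycling cells (8.69%) and 7 in ISC-like cells (2.69%). The members called lower, Psme3, Psmg1 and Psmg2, were so in absorptive-like cells, where 13.2% of all genes fell. DESeq2 called only 1 member lower there. In goblet/Paneth-like cells edgeR called 0 of 38 members (1.33% of all genes were higher), with 6 of them at an unadjusted p under 0.05 (as were 1035 of 8136 genes), and DESeq2 called 0. That class had 12 to 19 control cells per replicate and 34 to 68 with the cytokines. The member median was 0.29 in absorptive-like, 0.18 in TA-like, 0.18 in Dmbt1-high cycling, 0.16 in ISC-like and 0.03 in goblet/Paneth-like cells. This order did not hold throughout, since without replicate 1 the median was 0.19 in ISC-like and 0.16 in absorptive-like cells.

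The replicates differed in the size of the change. The median difference of the members was 0.25 in replicate 1, 0.08 in replicate 2 and 0.24 in replicate 3. Replicate 2 was the lowest of the 3. Its libraries had medians of 23345 and 27317 UMIs per barcode before filtering, against 3685.5, 3485.5 and 4427 in the other libraries. Hashtag doublets made up 25.54 and 11.88% of its barcodes with a hashtag, against 10.79, 7.48 and 9.024%. Whether this bears on the smaller change was not tested. There were 26 higher calls without replicate 1, 68 without replicate 2 and 24 without replicate 3. With no replicate block in the fit there were 6. The share of all genes called in these fits is not given here, so the counts do not single out the members. With rIFNγ plus rIL-10 the ISC markers were also lower in sum (615 to 1051 CPM against 1689 to 1908), as were the dissociation and heat shock genes (254.5 to 400.2 against 594 to 825). Within ISC-like cells the ISC markers summed to 3069 and 2767 CPM with the cytokines in replicates 1 and 2, against 4530 and 4410 in control. In replicate 3 this sum was 5462 CPM in control, and its value with the cytokines is not given here. The part of these differences in the members' changes was not tested.

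As a share of all UMIs, the members were higher with rIFNγ plus rIL-10 in each replicate over all cells, at 0.613, 0.620 and 0.702% against 0.512, 0.583 and 0.591% in control. In TA-like cells the shares were 0.652, 0.650 and 0.736% against 0.532, 0.594 and 0.620%, and in absorptive-like cells 0.599, 0.543 and 0.635% against 0.411, 0.499 and 0.496%. The groups did not overlap in either class, and in goblet/Paneth-like cells they did (0.424 to 0.510% against 0.442 to 0.449%). The makeup of the TA-like class differed, since a cluster led by S-phase genes such as Rrm2 and Mcm6 held 19.0% of its control cells and 33.0% of its cytokine cells, and a cluster led by Cenpf and Mki67 held 27.6% and 17.0%. Within the S-phase cluster the share was 0.598 ± 0.0531% in control and 0.691 ± 0.0540% with the cytokines, and within the Cenpf cluster 0.527 ± 0.0213% and 0.608 ± 0.0166%. The mean was higher with the cytokines in each of the 12 clusters, the unnamed and endocrine-like ones included. Not every replicate was, with 0.424 against 0.442% in replicate 1 of the goblet/Paneth-like cluster. In replicate 3 of the endocrine-like cluster, with 9 cells in each of these groups, it was 0.585 against 0.610%.

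**Figure D2:**
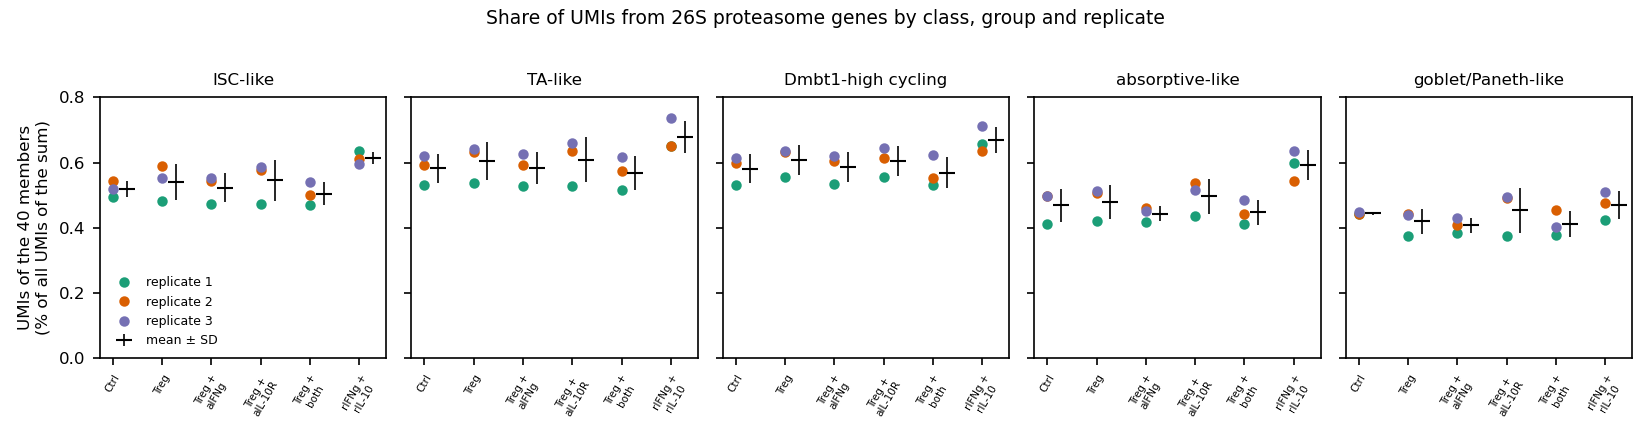
UMIs of the 40 members as a percentage of all UMIs (y axis) in the 6 groups, by class; points are the 3 replicates, crosses with bars the mean ± SD. The cytokine group lies above control in TA-like cells (0.680 against 0.582% on average) and absorptive-like cells (0.592 against 0.469%), and overlaps with it in goblet/Paneth-like cells.

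The α ring had 22 of its 35 tests higher and 0 lower, with a median log2 fold change of 0.32. Of all genes 9.28% were higher and 8.34% lower. In TA-like, Dmbt1-high cycling and absorptive-like cells 6 of its 7 tested genes rose, Psma6 being the exception, and in ISC-like cells 4 did. Psma4 was at 220.3, 233 and 247 CPM in control TA-like cells and at 362, 317 and 387 with the cytokines. In absorptive-like cells it was at 156, 200.3 and 207 in control and at 335, 268 and 327 with the cytokines. Every cytokine replicate was above every control replicate in both classes, with replicate 2 the lowest of them. The log2 fold change of Psma4 was 0.65 ± 0.072 (SE) in TA-like cells (adjusted p = 2.46e-06), or 1.57-fold, and 0.74 ± 0.113 in absorptive-like cells (adjusted p = 0.00012). In goblet/Paneth-like cells it was 0.33 ± 0.132 (adjusted p = 0.277).

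Psma5 was at 226, 261 and 263 CPM in control TA-like cells and at 361, 340.1 and 407 with the cytokines. In ISC-like cells it was at 200.4, 253 and 246 in control and at 349, 313 and 369 with the cytokines. The groups did not overlap in either class. Its log2 fold change was 0.60 ± 0.072 in TA-like (adjusted p = 5.59e-06), 0.76 ± 0.102 in absorptive-like (3.09e-05), 0.68 ± 0.085 in Dmbt1-high cycling (2.59e-06), 0.55 ± 0.118 in ISC-like (0.00373) and 0.54 ± 0.156 in goblet/Paneth-like cells (0.0792). The calls of Psma4 and Psma5 in TA-like, Dmbt1-high cycling and absorptive-like cells held when any 1 replicate was left out. Their calls in ISC-like cells were lost without replicate 1.

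The other α subunits changed less in most classes. Psma1 was at 78.6, 112 and 111 CPM in control absorptive-like cells and at 159, 132 and 172 with the cytokines, without overlap (log2 fold change 0.64 ± 0.122, adjusted p = 0.0008). Psma2 was at 244, 294 and 327 in control TA-like cells and at 338, 357 and 438 with the cytokines, without overlap, and rose by 0.43 ± 0.057 on the log2 scale (adjusted p = 1.51e-05). Psma7 was at 568, 571 and 581 in control TA-like cells and at 711, 619 and 706 with the cytokines. Its control replicates lay close together and its cytokine replicates were all above them, replicate 2 the least so. The log2 fold change of Psma7 was 0.28 ± 0.053 (adjusted p = 0.000467), a call lost without replicate 3. Psma3 rose in TA-like cells by 0.25 ± 0.055 (adjusted p = 0.00224). Psma6 was called in no class, with -0.12 ± 0.103 in ISC-like, 0.10 ± 0.040 in TA-like (adjusted p = 0.0684) and 0.11 ± 0.083 in absorptive-like cells. Without replicates 1, 2 and 3 in turn the ring had 12, 20 and 13 higher calls. The share of all genes called in these fits is not given here.

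**Figure D3:**
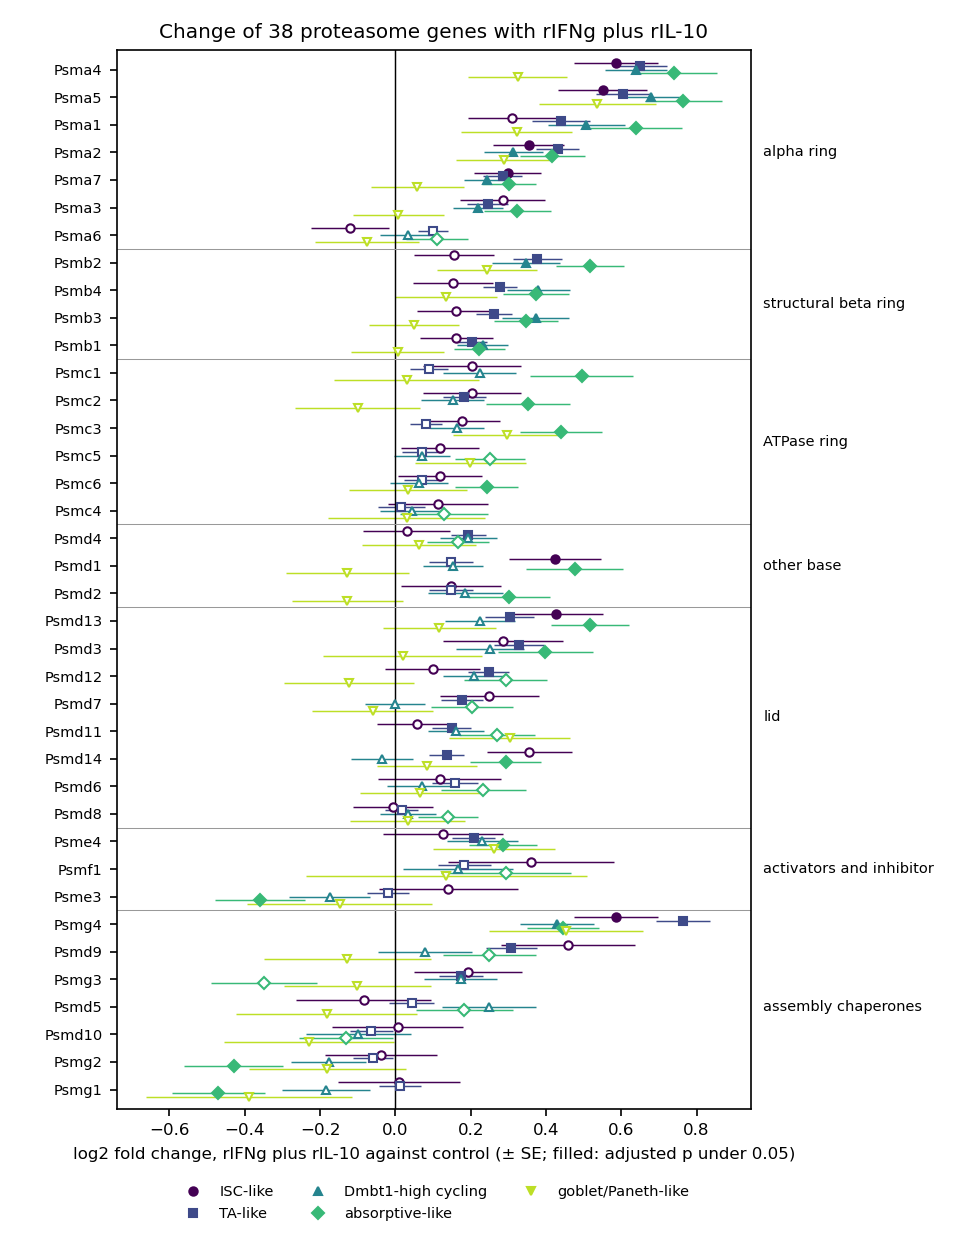
Log2 fold change with rIFNγ plus rIL-10 against control (x axis) of the 38 tested members (y axis, ordered by role) in the 5 classes; bars are ± SE and filled points have an adjusted p under 0.05. Most α ring and structural β subunits are filled and right of 0 in TA-like, Dmbt1-high cycling and absorptive-like cells, and Psmg1, Psmg2 and Psme3 are filled and left of 0 in absorptive-like cells.

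All 4 structural β subunits (Psmb1 to Psmb4) rose in TA-like, Dmbt1-high cycling and absorptive-like cells. This made 12 of 20 tests, against 9.28% of all genes higher, with a median of 0.24. Psmb2 was at 206, 293 and 296 CPM in control TA-like cells and at 290.4, 322 and 386 with the cytokines. The groups overlapped because replicate 1 was low in both, and each replicate was higher with the cytokines. The log2 fold change of Psmb2 was 0.38 ± 0.065 in TA-like (adjusted p = 0.000232) and 0.52 ± 0.091 in absorptive-like cells (0.000419). Psmb4 was at 208, 247 and 252 in control Dmbt1-high cycling cells and at 289.9, 268 and 339 with the cytokines, without overlap (0.38 ± 0.085, adjusted p = 0.00247). Psmb3 was at 256, 308 and 334 in control TA-like cells and at 302, 342 and 407 with the cytokines, which overlapped, and rose by 0.26 ± 0.048 (adjusted p = 0.000395). Psmb1 rose by 0.20 ± 0.041 in TA-like cells (adjusted p = 0.00103). When replicates 1, 2 and 3 were left out in turn, 5, 12 and 4 of these tests were called. How many of all genes were called in these fits is not given here.

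The lid of the 19S cap had 10 of 40 tests higher, against 9.28% of all genes, with a median of 0.16. Of these calls 6 were in TA-like cells, where 15.2% of all genes were higher. Psmd13, a lid subunit, was at 69.6, 83.0 and 95.3 CPM in control absorptive-like cells and at 108, 108 and 136 with the cytokines, without overlap. It rose there by 0.52 ± 0.104 on the log2 scale (adjusted p = 0.00122), by 0.30 ± 0.065 in TA-like cells (0.0016) and by 0.43 ± 0.125 in ISC-like cells (0.0386). The call in TA-like cells was lost without replicate 3 and that in ISC-like cells without any 1 replicate. Psmd3 rose by 0.33 ± 0.066 in TA-like cells (adjusted p = 0.000925), a call lost without replicate 3, and Psmd7 by 0.18 ± 0.055 (adjusted p = 0.0206), lost without replicate 1 or 3. Psmd8 was called in no class, with changes of -0.01 to 0.14, and its TA-like levels were 127, 150.4 and 169 in control and 115, 154 and 172 with the cytokines. With each replicate left out (1, 2 and 3), the lid had 4, 15 and 1 higher calls, in fits whose share of all genes called is not given here.

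In the ATPase ring 5 of 30 tests were higher, against 9.28% of all genes. The calls were Psmc1, Psmc2, Psmc3 and Psmc6 in absorptive-like cells (14.6% of all genes were higher) and Psmc2 in TA-like cells (15.2%). Psmc3 was at 118, 118 and 95.3 CPM in control absorptive-like cells and at 174, 125 and 154 with the cytokines. The groups did not overlap, with replicate 2 the nearest to its control, and the log2 fold change was 0.44 ± 0.109 (adjusted p = 0.00535). Psmc1 was at 59.4, 81.4 and 51.4 in control absorptive-like cells and at 99.7, 87.3 and 80.9 with the cytokines, with overlap by a narrow margin (0.49 ± 0.136, adjusted p = 0.0109). Without replicates 1, 2 and 3 in turn the ring had 0, 8 and 0 higher calls. The share of all genes called in these fits is not given here, so the counts do not single out the ring. Of the other base subunits 4 of 15 tests were higher, against 9.28% of all genes. Psmd4 rose by 0.19 ± 0.047 in TA-like cells (adjusted p = 0.00411) and Psmd2 by 0.30 ± 0.108 in absorptive-like cells (adjusted p = 0.0447). Psmd1, a scaffold subunit, rose in ISC-like and absorptive-like cells (0.42 and 0.48). It shares exon sequence with Gm21972, so that its reads may be uncertain, which was not checked. When replicates 1, 2 and 3 were left out in turn, the other base subunits had 0, 7 and 0 higher calls, with the same limit.

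The assembly chaperones had 6 of 35 tests higher (17.1%, against 9.28% of all genes) and 2 lower, both in absorptive-like cells, where 13.2% of all genes were lower, with a median of 0.01. Psmg4, which pairs with Psmg3 in building the α ring and holds the interferon response element match printed above, was at 84.8, 87.7 and 104 CPM in control TA-like cells and at 152, 135 and 170.1 with the cytokines. In absorptive-like cells it was at 49.8, 63.0 and 57.0 in control and at 68.2, 92.3 and 69.6 with the cytokines. The groups did not overlap in TA-like, Dmbt1-high cycling, ISC-like or absorptive-like cells. The log2 fold change of Psmg4 was 0.76 ± 0.071 in TA-like (1.70-fold, adjusted p = 3.54e-07), 0.59 ± 0.112 in ISC-like (0.00111), 0.45 ± 0.095 in absorptive-like (0.00192) and 0.43 ± 0.098 in Dmbt1-high cycling cells (0.00317). The call in ISC-like cells was lost without replicate 2, and the others held without any 1 replicate. In goblet/Paneth-like cells Psmg4 was at 70.8, 51.6 and 47.0 in control and at 68.0, 70.3 and 95.5 with the cytokines (0.45 ± 0.204, adjusted p = 0.35). Psmd9, a chaperone of the base, rose in TA-like cells by 0.31 ± 0.068 (adjusted p = 0.00212).

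Psmg1 and Psmg2, the other chaperone pair of the α ring, were called lower in absorptive-like cells by edgeR. DESeq2 made only 1 lower call among all assembly chaperones. Psmg1 was at 33.3, 51.4 and 46.5 CPM in control and at 26.6, 38.1 and 27.3 with the cytokines, where the groups overlapped and each replicate was lower with the cytokines, and its log2 fold change was -0.47 ± 0.123 (adjusted p = 0.00786). Psmg2 was at 30.2, 32.2 and 26.3 in control and at 22.0, 23.2 and 20.9 with the cytokines, without overlap (-0.43 ± 0.132, adjusted p = 0.0206). In TA-like cells the changes of these genes were 0.01 ± 0.056 and -0.06 ± 0.052, and neither was called. The call of Psmg1 in absorptive-like cells was lost without replicate 3, and that of Psmg2 without any 1 of the replicates. Psmd10 (gankyrin) and Psmd5, chaperones of the base, were called in no class, with changes of -0.23 to 0.01 and -0.18 to 0.25.

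Among the activators and the inhibitor, Psme4 rose in TA-like cells (0.21 ± 0.057, adjusted p = 0.00985) and in absorptive-like cells (0.29 ± 0.091, adjusted p = 0.0246). Psme3, the nuclear activator PA28γ, was at 51.3, 35.7 and 44.7 CPM in control absorptive-like cells and at 36.0, 33.2 and 33.0 with the cytokines. Its log2 fold change there was -0.36 ± 0.119 (adjusted p = 0.0301), a call lost with DESeq2, without replicate 1 and without replicate 3. The call of Psme4 in TA-like cells was lost without replicate 2 and without replicate 3, and that in absorptive-like cells without replicate 1 and without replicate 3. Psmf1 was called in no class, with changes of 0.13 to 0.36.

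**Figure D4:**
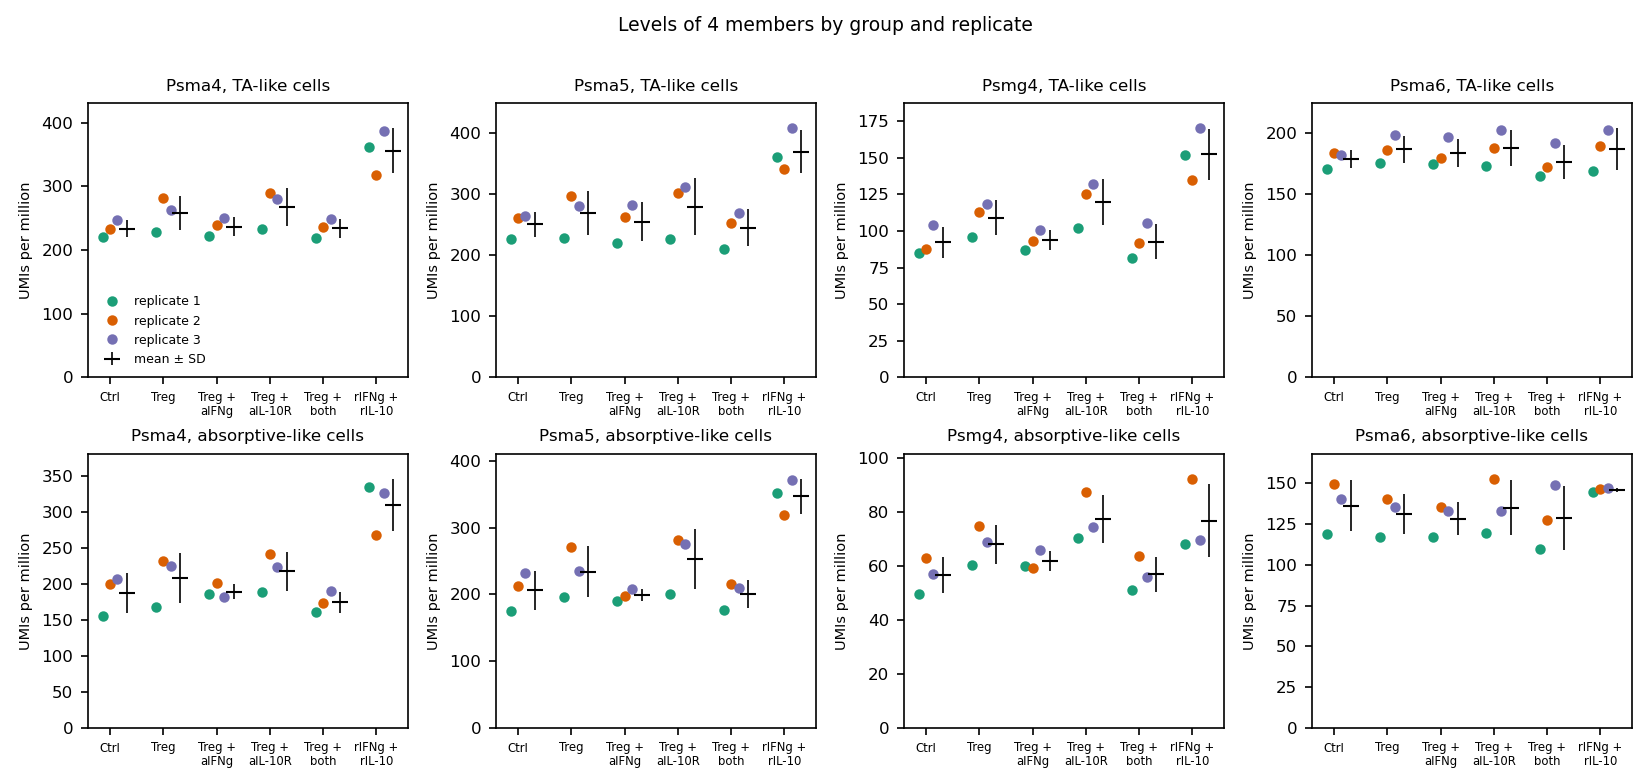
CPM of Psma4, Psma5, Psmg4 and Psma6 (y axis) in the 6 groups for TA-like cells (top) and absorptive-like cells (bottom); points are the 3 replicates, crosses with bars the mean ± SD. The cytokine replicates of Psma4, Psma5 and Psmg4 lie above the control replicates in both classes, and Psma6 shows no such separation.

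The change with rIFNγ plus rIL-10 was compared between absorptive-like and TA-like cells by an interaction term in edgeR. Of 38 members 3 differed (7.89%, against 12.6% of all genes tested). The change of Psmc3 in absorptive-like minus TA-like cells was, on the log2 scale, 0.37 ± 0.119 (adjusted p = 0.0369). Psmg3, the partner of Psmg4, rose by 0.17 ± 0.060 in TA-like cells (adjusted p = 0.034) and had a change of -0.35 ± 0.141 in absorptive-like cells (adjusted p = 0.0716), a difference of -0.50 ± 0.151 (adjusted p = 0.0266). Its levels were 64.1, 71.1 and 80.5 CPM in control TA-like cells against 76.6, 75.0 and 85.8 with the cytokines, and 35.8, 44.6 and 40.2 in control absorptive-like cells against 27.3, 38.2 and 28.4. These groups overlapped in both classes. Psmg3 shares exon sequence with Gm26938, so that its reads may be uncertain, which was not checked. The difference for Psmg1 was -0.46 ± 0.127 (adjusted p = 0.016). The median difference over the members was 0.10, and 30 of 38 were positive. What share of all genes had a positive difference is not given here. With each replicate left out (1, 2 and 3), 1, 6 and 0 members were called, in fits whose share of all genes called is not given here.

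**Figure D5:**
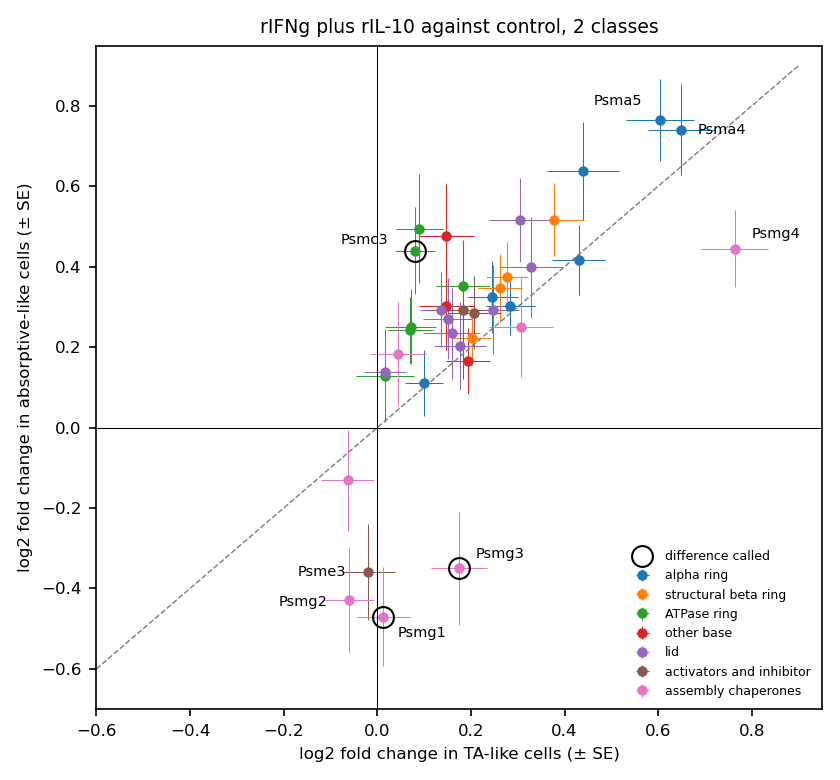
Log2 fold change with rIFNγ plus rIL-10 against control in TA-like cells (x axis) and absorptive-like cells (y axis) for the 38 members, with bars of ± SE; the dashed line marks equal change and rings mark Psmc3, Psmg3 and Psmg1. Psmc3 lies above the line (difference 0.37), and Psmg3 and Psmg1 lie below it (-0.50 and -0.46).

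The Treg comparisons asked what cocultured Treg cells do and which part of it depends on IFNγ or on the IL-10 receptor. They share the control or the Treg group with each other and with the comparison above, so their values are set side by side. Against control, Treg cells gave 0 of 190 member calls (0.173% of all genes were higher and 0.026% lower), with 14 at an unadjusted p under 0.05 in edgeR (7.37%, against 6.46% of all genes) and 0 calls in DESeq2, and a member median of 0.03. Of these 190 log2 fold changes 120 were above 0, and the share of all genes above 0 is not given here. Psmg4 in TA-like cells was at 96.0, 113 and 118 CPM with Treg cells against 84.8, 87.7 and 104 in control. The groups overlapped, and the log2 fold change was 0.25 ± 0.071 (adjusted p = 0.193). Psma4 was at 229, 282 and 262 in the same Treg cocultures, with a change of 0.15 ± 0.072 (adjusted p = 0.607).

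With anti-IL-10R added to the Treg cells, 2 of 190 tests were higher than control (1.05%, against 0.397% of all genes), both for Psmg4, with 16 at an unadjusted p under 0.05 (8.42%, against 8.18% of all genes), a member median of 0.04 and 2 calls in DESeq2. In TA-like cells Psmg4 was at 102, 125 and 132 CPM against 84.8, 87.7 and 104 in control, with overlap (0.38 ± 0.070, adjusted p = 0.00649). In Dmbt1-high cycling cells it was at 92.5, 115 and 113 against 84.3, 74.6 and 76.8, without overlap (0.41 ± 0.094, adjusted p = 0.0402). Both calls were lost without replicate 3, and the one in Dmbt1-high cycling cells also without replicate 2. The change was 0.47 ± 0.096 in absorptive-like (adjusted p = 0.054) and 0.38 ± 0.107 in ISC-like cells (0.31). The T cell markers were at 0.596, 11.6 and 21.0 CPM in the TA-like cells of this group, with 12 of 12 detected in replicates 2 and 3, and their part in that call was not tested. In its Dmbt1-high cycling cells they were at 0.674, 0.804 and 0.828 CPM, with at most 2 of 12 detected, and no fibroblast marker had a UMI.

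With anti-IFNγ, alone or with anti-IL-10R, no member was called against control. There were 0 of 190 calls with anti-IFNγ (0% of all genes) and 0 with both antibodies (0.00371% of all genes higher), with 3 and 5 at an unadjusted p under 0.05 in edgeR (1.58% and 2.63%, against 3.14% and 3.98% of all genes), 0 calls in DESeq2 and member medians of -0.02 and -0.06. Psmg4 was at 87.0, 93.2 and 101 CPM in TA-like cells with anti-IFNγ and at 81.4, 91.5 and 105 with both antibodies. Both sets of values overlapped with those of control.

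Against Treg cells alone, 0 of 190 members were called with both antibodies (0.224% of all genes were lower and 0.0761% higher), with 27 at an unadjusted p under 0.05 (14.2%, against 7.45% of all genes), 0 calls in DESeq2 and a member median of -0.08. Psmg4 in Dmbt1-high cycling cells was at 73.5, 68.3 and 82.0 CPM with both antibodies and at 88.8, 98.8 and 101 with Treg cells alone. These values did not overlap, and the change was -0.39 ± 0.093 (adjusted p = 0.0781). With anti-IFNγ 0 were called against Treg cells alone (0.182% of all genes were lower and 0.0315% higher), with 12 at an unadjusted p under 0.05 (6.32%, against 6.21% of all genes), 0 calls in DESeq2 and a median of -0.05. With anti-IL-10R 0 were called (0% of all genes), with 6 at an unadjusted p under 0.05 (3.16%, against 2.98% of all genes), 0 calls in DESeq2 and a median of 0.02. Of the 190 log2 fold changes against Treg cells alone, 35 were above 0 with both antibodies, 47 with anti-IFNγ and 112 with anti-IL-10R. The share of all genes above 0 is not given here, and the classes share their replicates, so these counts do not single out the members.

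The cytokine group was also set against the Treg group. Of 190 tests 39 were higher (20.5%, against 5.35% of all genes) and 0 lower (4.56% of all genes), for 23 members, with a median of 0.17, 81 at an unadjusted p under 0.05 in edgeR (42.6%, against 22.7% of all genes) and 39 higher by DESeq2. The α ring had 17 of 35 tests higher, the structural β subunits 7 of 20, the lid 7 of 40 and the ATPase ring 5 of 30. Psma4 rose in 4 classes, among them TA-like cells by 0.50 ± 0.071 (adjusted p = 9.57e-05) and absorptive-like cells by 0.59 ± 0.112 (adjusted p = 0.00172). Psmg4 rose in TA-like cells by 0.51 ± 0.070 (adjusted p = 6.35e-05) and was not called in Dmbt1-high cycling cells (0.14 ± 0.093, adjusted p = 0.45). Without replicates 1, 2 and 3 in turn there were 7, 64 and 4 calls, in fits whose share of all genes called is not given here.

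Other genes of the pathway give the scale of these changes. The catalytic subunits Psmb5, Psmb6 and Psmb7 were called higher with rIFNγ plus rIL-10 in 3 of 15 tests, against 9.28% of all genes. The calls were Psmb5 in TA-like cells and Psmb7 in TA-like and absorptive-like cells, and the median was 0.06. Psmb6 was at 230.0, 273 and 301 CPM in control TA-like cells and at 219, 261 and 319 with the cytokines, and was called in no class. The immunoproteasome genes Psmb8, Psmb9, Psmb10, Psme1 and Psme2 rose in 25 of 25 tests, by 1.45 to 6.0 on the log2 scale. Psmb8 was at 8.07, 5.2 and 15.6 in control TA-like cells and at 516, 337 and 743 with the cytokines (6.0 ± 0.420, adjusted p = 1.42e-08). These genes were also higher in 19 of 25 tests for Treg cells against control (0.173% of all genes were), with a median of 1.06. Against Treg cells alone they were lower in 20 of 25 with both antibodies (0.224% of all genes), with a median of -1.14. With anti-IFNγ they were lower in 20 of 25 (0.182% of all genes, median -1.15) and with anti-IL-10R in 0 of 25 (0% of all genes, median 0.20). In sum they were at 349.9, 337 and 384 in control TA-like cells and at 2089, 1658 and 2453 with the cytokines, while the catalytic subunits were at 537, 647 and 696 in control and at 574, 649 and 748 with the cytokines. The catalytic sums overlapped between the groups and the immunoproteasome sums did not.

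Of 30 other genes of the pathway (ubiquitin receptors, adaptors, regulators and ubiquitin itself), 12 rose and 4 fell in at least 1 class, in 19 (12.9%) and 5 of 147 tests, with a median of 0.07, while 9.28% of all genes were higher and 8.34% lower. Pomp, the chaperone that matures the β ring, was at 234, 269 and 283 CPM in control TA-like cells and at 407, 362 and 449 with the cytokines, without overlap. It rose by 0.67 ± 0.069 there (adjusted p = 8.54e-07), by 0.71 ± 0.102 in ISC-like, 0.60 ± 0.088 in Dmbt1-high cycling and 0.71 ± 0.089 in absorptive-like cells. Ecpas, an adaptor that binds the proteasome, rose by 0.40 ± 0.057 in TA-like, 0.51 ± 0.091 in Dmbt1-high cycling and 0.33 ± 0.080 in absorptive-like cells. Adrm1, a ubiquitin receptor of the base, rose in TA-like cells by 0.21 ± 0.068 (adjusted p = 0.0233), and Sem1, a small lid subunit, was called in no class, with changes of -0.13 to 0.21. Nfe2l1, a transcription factor known to drive proteasome genes when proteasome activity is low, was at 48.0, 42.8 and 34.5 in control absorptive-like cells and at 82.0, 52.3 and 51.8 with the cytokines (0.56 ± 0.12, adjusted p = 0.0019). Nfe2l2, a transcription factor of the antioxidant response, fell in ISC-like cells (-0.44 ± 0.116, adjusted p = 0.0213) and TA-like cells (-0.18 ± 0.048, adjusted p = 0.00827) and rose in absorptive-like cells (0.33 ± 0.080, adjusted p = 0.00511).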

How the data were processed

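Per the file headers and the study's methods, the authors ran Cell Ranger 7.0.0 on both sequencing runs of each library with a GRCm38 (mm10) reference and deposited raw UMI counts per gene, hashtag and cell barcode. They analysed the cells in Seurat 4.0.5. One further library of replicate III, which the study left out, was not used here. Hashtags were called from the deposited counts with HTODemux (Seurat 5.3.0, quantile 0.99). Singlets were kept between 10000 and 90000 UMIs and between 3000 and 10000 genes, with a mitochondrial share of 8.5% or less. Control cells were clustered (leidenalg 0.10.2) without proteasome and interferon genes, and all cells were assigned by rank correlation to the control cluster most like them; 87.6% of control cells returned to their own class. Hashtag doublets were removed, and simulated doublets were removed as an alternative. The absorptive-like class joins a cluster led by Reg1 and Fabp1 with another led by Areg, which has Alpi among its leading genes. Each had 1 enterocyte marker among its leading genes and was not named enterocyte. The median log2 fold of the enterocyte markers against other control cells was 2.902 in the Reg1 cluster and 0.4675 in the Areg cluster. The planned test of enterocytes against TA-like cells was run with this joint class.

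UMIs were summed per class, group and replicate (at least 10 cells) and fitted in edgeR 4.0.16 (R 4.3.3) with TMM scaling, filterByExpr, group and replicate as terms, and all 6 groups in 1 fit. The SE is the log2 fold change divided by the root of the F statistic. The replicate is a set of shared libraries and was kept as a block, since same-replicate residuals correlated at 0.169 to 0.438 on average in the 5 classes. Residuals of other replicates correlated at -0.152 to -0.263, which subtracting the group means makes negative by itself. A run of the fit on simulated counts covered ISC-like and TA-like cells only, and nothing is drawn from it here. Levels are UMIs per 1000000 gene UMIs of the sum (CPM). Alternatives were DESeq2 1.42.0, other scalings, no filter, libraries as units, other cell limits, equal cell numbers, no replicate block and leaving out each replicate. Whether proteins changed was not measured. The summed level of 1 marker list is not reported here.

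The members and lists were chosen with earlier results of these data known. The genes named were the 10 members with the highest median change among those called in at least 3 classes, the 5 with the lowest medians, the highest and lowest member of each role in control, the members called in the Treg or interaction tests, the 2 untested members, and a list of related genes. Psma3, Psma6, Psmc2, Psmc6, Psmd1, Psmd9 and the members named in lists of calls were chosen after their values were seen.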

Additional observations from a re-analysis of the deposited data

Results flagged for a closer look

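The change with rIFNγ plus rIL-10 against control differed between absorptive-like and TA-like cells for 3 of 38 members, by an interaction term in edgeR with adjustment over all genes. The log2 difference (absorptive-like minus TA-like) was 0.37 for Psmc3 (adjusted p = 0.0369), -0.50 for Psmg3 (adjusted p = 0.0266) and -0.46 for Psmg1 (adjusted p = 0.016). Psmg3 and Psmg1 belong to the chaperone pairs that build the α ring, and Psmc3 is an ATPase of the base. Over all genes tested 12.6% differed by the same test, so that 3 of 38 (7.89%) is not a larger share. Without replicates 1, 2 and 3 in turn 1, 6 and 0 members differed, and the share of all genes in these fits is not given here.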

How the results depend on the processing

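There were 3 replicates, and goblet/Paneth-like cells had as few as 12 control cells in 1 replicate, which limits what could be detected there. The same limit holds for ISC-like cells, with 22, 45 and 17 cells in the cytokine group. Replicate 3 of the Treg + anti-IL-10R group had 15 ISC-like cells. The median log2 fold change of the members with rIFNγ plus rIL-10 against control, over all 5 classes, was 0.18. It stayed between 0.15 and 0.24 under every alternative run. By class it moved more. In absorptive-like cells (0.29) it was 0.16 without replicate 1 and 0.41 without replicate 2. In goblet/Paneth-like cells (0.03) it was 0.11 without replicate 1 and -0.04 without replicate 3. The 61 higher calls became 6 with no replicate block, ranged from 24 to 68 with 1 replicate left out and from 54 to 72 under the other alternatives. Of 80 calls of named members, none reversed, and 6 were kept with no replicate block, 34 without replicate 1, 73 without replicate 2 and 26 without replicate 3. Cytokines against Treg cells gave 39 calls, 0 with no replicate block and 4 to 64 with 1 replicate left out. Treg cells against control gave 0 calls, 2 with no filter on low counts and 1 with libraries as units. Treg cells with anti-IL-10R against control gave 2 calls, 0 with no replicate block, 1 with RLE scaling, 7 with no filter, 1 with equal cell numbers and 0 to 3 with 1 replicate left out. Both antibodies against Treg cells gave 0 lower calls, 7 with no filter, 4 with libraries as units and 0 to 2 with 1 replicate left out. Anti-IFNγ against Treg cells gave 0 lower calls and 2 with no filter. The interaction gave 3 calls, 0 with no replicate block, 5 with DESeq2, 5 with no filter, 7 with libraries as units and 0 to 6 with 1 replicate left out. The share of all genes called under each alternative is not given here, so these counts do not single out the members. Fits with 1 replicate left out have fewer samples, and for the other settings the cause was not tested.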
